A study of Mus musculus with 4 samples.

Results

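Tight junctions seal the space between neighboring epithelial cells. Their strands are built from claudins, membrane proteins of which each cell type uses its own set, and from occludin, a further membrane protein of the strand. Scaffold proteins such as ZO-1 tie the strands to the actin skeleton. Some claudins tighten the barrier and others form pores for ions, so the set that a cell expresses influences what can pass between cells. In the urothelium, the stratified epithelium of ureter and bladder, the junctions between the superficial cells at the lumen are part of the barrier to urine.

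The genes described here are 8 claudin genes (*Cldn1*, *Cldn3*, *Cldn4*, *Cldn6*, *Cldn7*, *Cldn8*, *Cldn10* and *Cldn23*), the occludin gene *Ocln* and *Tjp1*, which encodes ZO-1. They were chosen with earlier results of these data known, and their probes were taken by gene name from the array annotation. This gave 10 of 29924 gene names and 13 of 39429 probes. All 10 genes passed the filter on dim probes. Of these, 9 had their brightest probe well above background in all 8 pools and *Cldn6* in 7 of 8.

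The ureters came from newborn NMRI mice (P0) and were cultured as explants for 8 days in medium with DMSO or with 2 µM purmorphamine, an agonist of Smoothened that switches on SHH signaling. *Pparg-cKO* ureters were *Pax2-cre/+; Pparg fl/fl*, and control ureters came from littermates that carried a floxed *Pparg* allele but no cre. PPARG is a nuclear receptor of the urothelium, and *Pax2-cre* removes exons of its gene in the nephric duct and in what derives from it, the ureteric epithelium and the collecting ducts of the kidney. RNA of pools sorted by sex was hybridized to 4 two-color arrays, each of which held both treatments of a single genotype and sex. Each of the 4 groups therefore had 2 pools, a male one (replicate 1) and a female one (replicate 2). The number of ureters per pool was not given in the sources used here. The dyes were exchanged between the male and the female arrays, so that sex, dye order and replicate number cannot be told apart.

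Explants hold urothelium together with mesenchyme and smooth muscle, and in such bulk RNA fewer cells of a type and less RNA per cell cannot be told apart. Epithelial markers were bright in all pools, with a summed intensity of 97260 to 103000 over 8 genes in control and 96020 to 101300 in *Pparg-cKO* pools with DMSO. The only *Pparg* probe does not check the genotype, because the mutant mRNA persists. *Shh*, the signal made by the urothelium, was lower by a log2 fold change of -2.93 in *Pparg-cKO* than in control ureters with DMSO (standard error, SE, 0.23; adjusted p = 0.0026, limma). *Ptch1*, a target of SHH signaling, rose with purmorphamine by 1.00 in control (adjusted p = 0.046) and by 1.62 in *Pparg-cKO* ureters (adjusted p = 0.014). The female *Pparg-cKO* pool with DMSO stood apart from the rest. Its summed intensity over the 4 squamous epidermal markers tested (*Krt1*, *Krt10*, *Lor* and *Ivl*) was 37830, against 2869 to 6929 in the other pools. *Ivl* did not share in this. By mean log2 level with DMSO, *Krt1*, *Krt10* and *Lor* were higher in *Pparg-cKO* than in control ureters, and *Ivl* was lower (12.35 against 13.19). None of these 4 genes was called, and their median log2 difference was -0.43 between male and 4.93 between female pools.

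Several of the genes lie beside another gene of the junction. *Cldn3* and *Cldn4* are adjacent protein-coding genes on chromosome 5, *Cldn6* lies next to *Cldn9* on chromosome 17, *Cldn8* next to *Cldn17* and *Cldn1* next to *Cldn16* on chromosome 16, and *Ocln* next to *Marveld2*, the gene of tricellulin, on chromosome 13. The sequences of 4 promoters are given because the largest changes below concern *Cldn3*, *Cldn6* and *Cldn1*, and because *Cldn4*, the neighbor of *Cldn3*, had a different pattern. Each is the 250 bases before the RefSeq transcript start (GRCm38.p6), written 5′ to 3′ on the strand of the gene. They are chr5:134985964-134986213 on the plus strand for *Cldn3*, chr5:134946935-134947184 on the minus strand for *Cldn4*, chr17:23679115-23679364 on the plus strand for *Cldn6* and chr16:26371840-26372089 on the minus strand for *Cldn1*. Capitals mark matches to any of 4 motifs searched on both strands.
Cldn3: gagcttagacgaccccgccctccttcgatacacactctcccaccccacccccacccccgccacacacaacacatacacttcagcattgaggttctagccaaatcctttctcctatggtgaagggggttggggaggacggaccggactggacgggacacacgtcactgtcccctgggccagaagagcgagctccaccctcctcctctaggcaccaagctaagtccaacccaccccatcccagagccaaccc
Cldn4: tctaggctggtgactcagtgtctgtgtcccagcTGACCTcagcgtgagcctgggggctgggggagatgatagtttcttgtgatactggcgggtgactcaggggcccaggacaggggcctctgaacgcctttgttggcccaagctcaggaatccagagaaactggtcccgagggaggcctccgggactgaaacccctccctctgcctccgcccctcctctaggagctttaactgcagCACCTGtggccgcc
Cldn6: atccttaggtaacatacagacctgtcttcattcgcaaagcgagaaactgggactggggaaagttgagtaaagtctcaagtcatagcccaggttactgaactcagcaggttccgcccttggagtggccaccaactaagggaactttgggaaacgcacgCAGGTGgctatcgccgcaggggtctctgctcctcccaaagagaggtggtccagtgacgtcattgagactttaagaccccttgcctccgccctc
Cldn1: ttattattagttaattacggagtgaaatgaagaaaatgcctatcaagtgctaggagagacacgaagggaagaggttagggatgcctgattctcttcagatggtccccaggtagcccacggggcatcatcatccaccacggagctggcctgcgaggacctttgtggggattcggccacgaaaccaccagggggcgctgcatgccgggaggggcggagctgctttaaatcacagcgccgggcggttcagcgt

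The motifs were the E-box CACCTG bound by repressors of the SNAI family, the GRHL site AACCGGTT, the GLI site GACCACCCA and the nuclear receptor half-site AGGTCA, none of which overlapped another in these windows. The E-box was found once in *Cldn4*, 14 bases before the start, and once in *Cldn6*, 93 bases before it, and 17.2% of all 32851 promoter windows hold one. The half-site was found in *Cldn4*, 217 bases before the start, against 14% of all windows. The GRHL site (0.116% of windows) and the GLI site (0.225%) were in none of the 4 sequences, and the windows of *Cldn3* and *Cldn1* held none of the 4 motifs. A match is a description of letters and not evidence of binding. Promoter sequences were found for 8 of the 10 genes.

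The first comparison asked how the loss of *Pparg* changed the genes in ureters cultured with DMSO. *Cldn3*, *Cldn6*, *Cldn8* and *Cldn23* were higher in *Pparg-cKO* ureters, and none of the 10 genes passed the test as lower. The background is that 1.87% of the 20229 genes tested were called higher and 1.8% lower by limma at a Benjamini-Hochberg adjusted p under 0.05. The median log2 fold change of the 10 genes was 0.58, and that of all genes was 0.00. Fits with an array left out, given below, leave a single pool in each group of that genotype. Between the genotypes, every such fit called fewer genes over all genes too.

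*Cldn3*, a claudin that tightens the junction, showed the largest difference. Its probe (NM_009902) lies at chr5:135463284-135463342 in mm9, the build of the array annotation. Its normalized level, a log2 intensity as are all levels below, was 8.64 for male and 6.87 for female control ureters and 11.80 and 11.73 in the *Pparg-cKO* pools. The control pools thus differed from each other by more than the *Pparg-cKO* pools did, and all *Pparg-cKO* values lay above all control values. On the scale of the study's methods, with a floor of 15, the processed intensity was 117.1 and 16.78 in control and 1272 and 1224 in *Pparg-cKO* pools. The log2 fold change was 4.02 (SE 0.54, 16.2-fold, adjusted p = 0.013). With each array left out in turn it was 3.13 to 4.90, and the call was lost without the male or without the female *Pparg-cKO* array, with adjusted p-values of 0.073 and 0.08. *Cldn4*, the adjacent gene, encodes a claudin of the superficial urothelial cells and went the other way without passing the test. Its brighter probe read 15.18 and 15.40 in control and 14.85 and 15.01 in *Pparg-cKO* pools, a log2 fold change of -0.36 (SE 0.12, adjusted p = 0.19), and its other probe gave -0.40 (adjusted p = 0.071). Without normalization between arrays, which shifted the median of all genes to -0.15, the value of the brighter probe was -0.59 and past the threshold (adjusted p = 0.04).

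*Cldn6*, a claudin best known from embryonic epithelia, was dim. Its level was 7.23 for male and 6.40 for female control ureters, the latter not well above background, and 8.28 and 8.67 in the *Pparg-cKO* pools. Both *Pparg-cKO* pools lay above both control pools. The log2 fold change was 1.66 (SE 0.27, adjusted p = 0.024), measured well above background on 1 of the 2 control arrays. Only without the male control array did the call remain (2.07, adjusted p = 0.045), and with each of the other arrays left out the log2 fold change was 1.25 to 1.85 with adjusted p-values of 0.077 to 0.17. Its neighbor *Cldn9*, named for its position, had a log2 fold change of 0.66 (adjusted p = 0.058).

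*Cldn8*, a claudin also found in the collecting ducts of the kidney, read 12.57 and 12.83 in control and 13.98 and 13.75 in *Pparg-cKO* pools. The groups did not overlap, and the log2 fold change was 1.16 (SE 0.20, 2.24-fold, adjusted p = 0.028). *Cldn23* read 9.19 in both control pools and 9.90 and 9.74 in the *Pparg-cKO* pools, which gave the smallest difference that passed the test, 0.63 (SE 0.12, adjusted p = 0.044). Neither call remained with any array left out. Across these fits the log2 fold change was 1.03 to 1.30 for *Cldn8*, with adjusted p-values of 0.07 to 0.18, and 0.55 to 0.71 for *Cldn23*, with 0.16 to 0.25.

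The other genes did not pass the test. The groups of *Cldn4*, *Cldn7* and *Ocln* did not overlap either, so with so few pools a lack of overlap does not set the called genes apart. How often the groups did not overlap over all genes was not counted. *Ocln* had levels of 11.79 and 11.64 in control and 12.42 and 12.11 in *Pparg-cKO* pools, and its log2 fold change was 0.55 with one probe (adjusted p = 0.092) and 0.58 with the other (adjusted p = 0.11). *Cldn7*, which in many epithelia also lies along the lateral membrane, read 13.93 and 13.72 in control and 14.33 and 14.13 in *Pparg-cKO* pools with its bright probe, with a log2 fold change of 0.41 (adjusted p = 0.17). The second *Cldn7* probe, which was annotated to another transcript and stayed near background at 6.66 to 7.12, gave 0.03. *Cldn1* differed more between the *Pparg-cKO* pools, 8.10 for males and 9.29 for females, than between the genotypes, and its log2 fold change of 0.60 had a standard error of 0.65 (adjusted p = 0.77). *Cldn10* and *Tjp1* had log2 fold changes of -0.02 (adjusted p = 0.98) and 0.10 (adjusted p = 0.81), with 95% confidence intervals of -0.61 to 0.57 and -0.21 to 0.41.

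**Figure D1:**
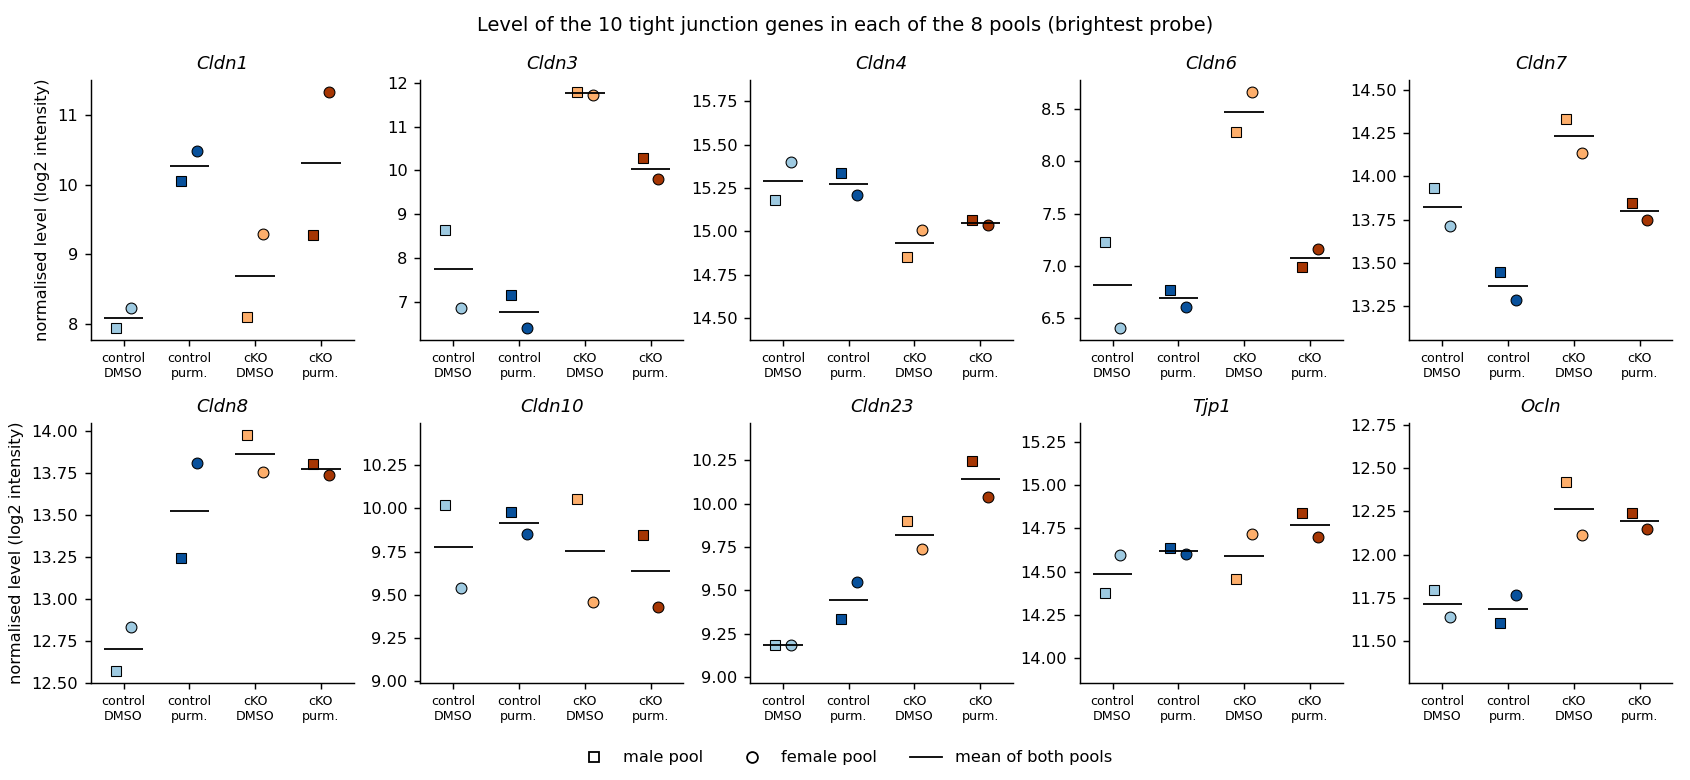
Normalized level (log2 intensity, brightest probe) of each of the 10 genes in the 8 pools, by genotype and treatment, with squares for male and circles for female pools and a line at the mean of the 2 pools; the vertical scale differs between panels. For *Cldn3* both *Pparg-cKO* pools with DMSO sit near 11.8 and the control pools at 8.64 and 6.87.

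The rule of the study's methods, which carries no test, asks that the male and the female pair both change alike by at least 1.5-fold, with an intensity above 100 in the brighter pool of each, and a gene counted if any of its probes passed. It took *Cldn3*, *Cldn8*, *Cldn23* and *Ocln* as higher in *Pparg-cKO* ureters, 4 of the 10 genes, where 5.5% of all genes bright enough passed it in either direction. *Ocln* passed by its dimmer probe only, with intensities of 220.5 and 182 in control and 356.9 and 309.2 in *Pparg-cKO* pools. Its brighter probe, with 1240 and 1135 against 1954 and 1569, fell short of 1.5-fold in the female pair. *Cldn6* did not pass this rule, since its male *Pparg-cKO* pool had an intensity of 95.99. None of the 4 calls by limma remained with the processed signals of the scanner software, where *Cldn3* had a log2 fold change of 4.82 (adjusted p = 0.09), or in a fit with the replicate number as a block and the intraspot correlation estimated in that fit, where *Cldn3* kept 4.02 (adjusted p = 0.054).

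Some markers of kidney cells moved with this comparison. Of the 8 kidney markers, 6 were tested and 3 were higher in *Pparg-cKO* ureters with DMSO. *Umod*, of the thick ascending limb, was higher by a log2 fold change of 2.37 (adjusted p = 0.015), with only the male control pool well above background, and *Slc12a1*, of the same segment, and *Nphs1*, of podocytes, had no control pool in which they were well above background and were at least 2.33-fold (adjusted p = 0.0034) and 1.85-fold higher (adjusted p = 0.024). The other tested markers were not called and did not move alike. From control to *Pparg-cKO* ureters the mean level went from 6.925 to 6.70 for *Slc34a1*, from 7.23 to 7.12 for *Aqp2* and from 7.04 to 7.46 for *Lrp2*. The sum over the tested markers was 102.7 to 180.6 in control and 332.4 to 343.5 in *Pparg-cKO* pools, in which *Slc12a3* and *Kap* did not pass the filter. In the female control pool all tested markers but *Aqp2* lay at the floor of 15. Cells of the nephron and collecting duct express claudin genes as well. The part of kidney cells in the differences of *Cldn3*, *Cldn6* and *Cldn8*, or in the values of the genes not called, was not tested. With purmorphamine the sums were 103.3 to 104.8 in control and 99.13 to 105.4 in *Pparg-cKO* pools, but every marker except *Aqp2* and, in the male *Pparg-cKO* pool, *Umod* lay at the floor of 15 there, so that these sums cannot show a difference. By level, *Umod* read 6.02 and 6.07 in control pools with purmorphamine, where it was not well above background, and 6.79 and 6.65 in *Pparg-cKO* pools, where it was (log2 fold change 0.67, adjusted p = 0.4). Markers of superficial cells moved the other way, with 3 of 5 lower in *Pparg-cKO* ureters with DMSO and sums of 65860 to 74560 in control and 38120 to 40480 in *Pparg-cKO* pools.

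**Figure D2:**
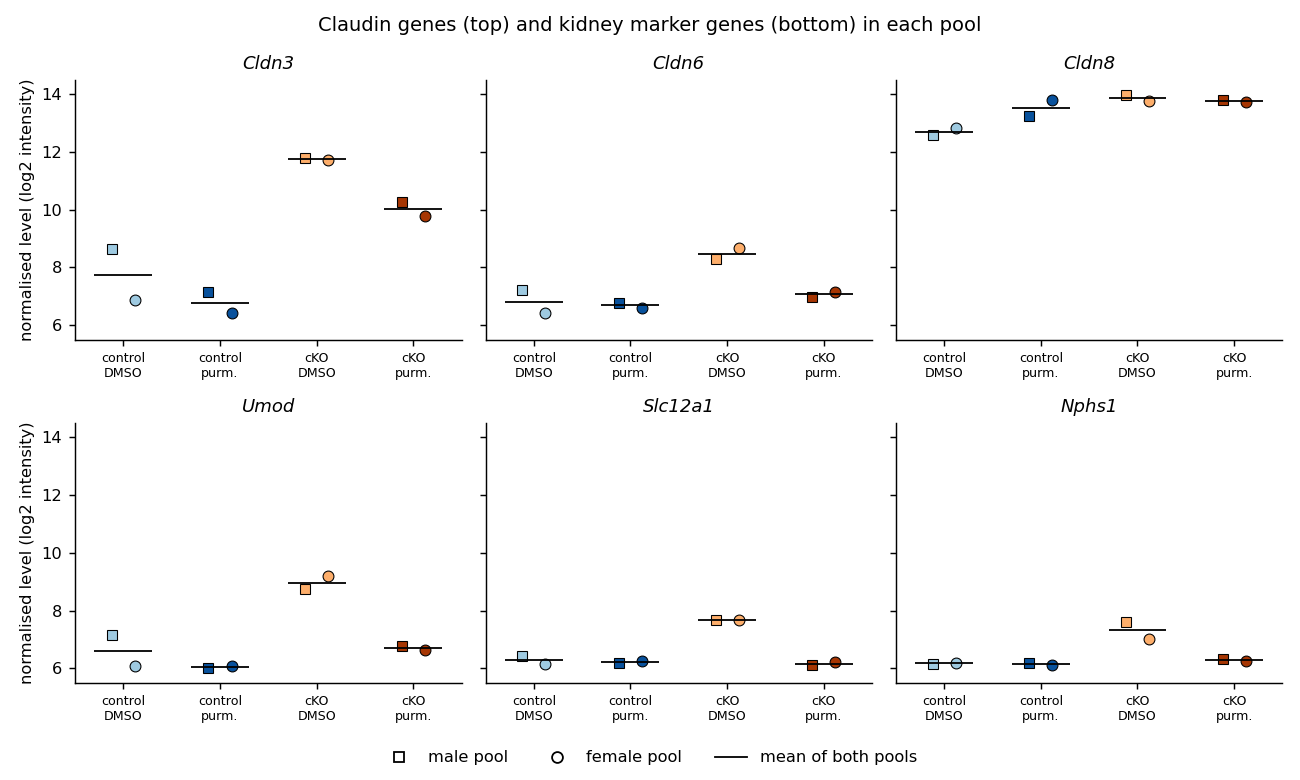
Normalized level (log2 intensity) of *Cldn3*, *Cldn6* and *Cldn8* (top) and of *Umod*, *Slc12a1* and *Nphs1*, the kidney markers called with DMSO (bottom), in the 8 pools, with squares for male and circles for female pools and a line at the mean of the 2 pools. All 6 genes are highest in *Pparg-cKO* pools with DMSO by group mean. With purmorphamine, the *Pparg-cKO* means of *Cldn3*, *Cldn6*, *Cldn8* and *Umod* lie above the control means, each by less than with DMSO (*Cldn6* 7.07 against 6.68, *Umod* 6.72 against 6.04), and *Slc12a1* and *Nphs1* are not well above background in any of these pools.

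The second comparison set the genotypes against each other in purmorphamine, with none of the pools of the first but on the same arrays. Both comparisons came from the same fit with a shared estimate of the spread, so the second is not an independent repeat. *Cldn3* and *Cldn23* were again higher in *Pparg-cKO* ureters, and none of the 10 genes passed the test as lower, where 1.15% of all genes were called higher and 1.82% lower. *Cldn3* read 7.14 and 6.41 in control and 10.28 and 9.80 in *Pparg-cKO* pools. The control values lay near background, with processed intensities of 26.6 and 15, the latter at the floor, so the size of the fold is uncertain. The groups did not overlap, and the log2 fold change was 3.26 (SE 0.54, 9.59-fold, adjusted p = 0.033). It stayed between 2.89 and 3.63 with each array left out, and the call remained only without the male control array (adjusted p = 0.048), with 0.064 to 0.25 otherwise. *Cldn23* read 9.33 and 9.55 in control and 10.25 and 10.04 in *Pparg-cKO* pools, a log2 fold change of 0.70 (SE 0.12, adjusted p = 0.038) that fell short of the threshold with any array left out (0.59 to 0.81, adjusted p = 0.11 to 0.33).

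*Cldn6* (log2 fold change 0.39, adjusted p = 0.57) and *Cldn8* (0.25, adjusted p = 0.63), which had passed with DMSO, did not pass here. The *Cldn8* pools overlapped, with 13.24 and 13.81 in control and 13.81 and 13.74 in *Pparg-cKO* ureters. Apart from *Cldn8* and *Cldn1*, the groups did not overlap for any of the genes, called or not. The share over all genes was not counted, so nothing particular to these genes follows from it. *Ocln* had 0.51 (adjusted p = 0.12) and *Cldn7* 0.43 (adjusted p = 0.14), close to their values with DMSO, while *Cldn4* had -0.22 (adjusted p = 0.42), *Cldn10* -0.28 (adjusted p = 0.68) and *Tjp1* 0.15 (adjusted p = 0.67). For *Cldn1* the pairs went in opposite directions, -0.77 between male and 0.85 between female pools (0.04, adjusted p = 0.99). Neither call remained in the 2 fits named for the first comparison. The methods' rule took *Cldn3* and *Cldn23*, against 6.28% of bright genes in either direction.

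**Figure D3:**
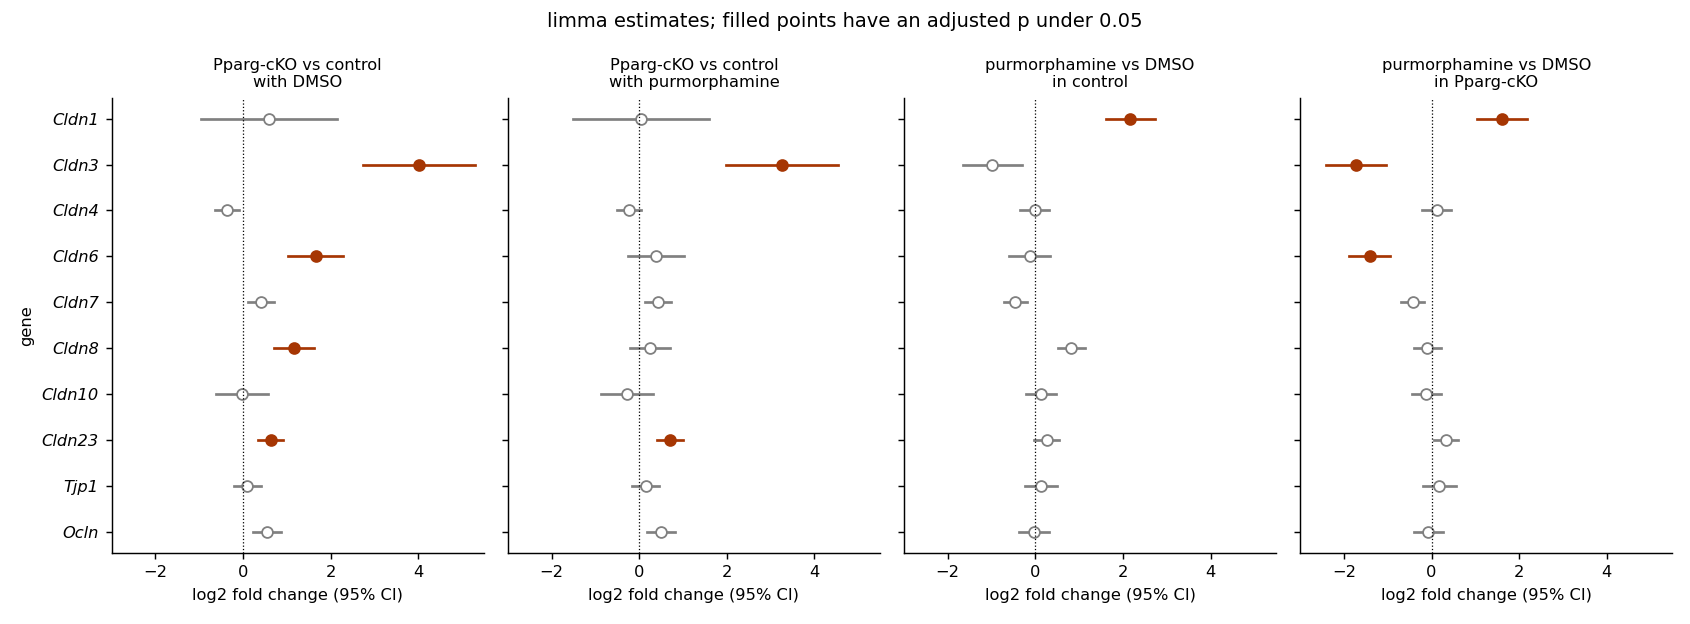
Log2 fold change from limma with its 95% confidence interval for each of the 10 genes (rows) in the 4 comparisons (panels), filled where the adjusted p is under 0.05. *Cldn3* is at 4.02 and 3.26 in the genotype comparisons, and *Cldn1* at 2.17 and 1.61 in the purmorphamine comparisons.

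The third comparison asked what purmorphamine did in control ureters, by the ratio of the pools on each array. *Cldn1* rose, and no other gene of the 10 passed the test, where 0.282% of all genes were called higher and 0.919% lower. *Cldn1*, a claudin needed for the barrier of the epidermis, read 7.95 and 8.24 with DMSO and 10.05 and 10.48 with purmorphamine. It was thus higher in both purmorphamine pools, by a log2 fold change of 2.17 (SE 0.22, 4.5-fold, adjusted p = 0.038). Without the male or the female control array it was 2.24 and 2.10 and not past the threshold, with adjusted p-values of 0.13 and 0.11. *Cldn8* was higher in both purmorphamine pools too, 13.24 against 12.57 and 13.81 against 12.83, with a log2 fold change of 0.82 short of the threshold (SE 0.12, adjusted p = 0.066). *Cldn3* (-0.98, adjusted p = 0.16) and *Cldn7* (-0.46, adjusted p = 0.12) had negative values in both sexes without passing. The remaining 6 genes had log2 fold changes of -0.13 for *Cldn6* to 0.26 for *Cldn23*. The call of *Cldn1* was also lost with the processed signals and with the replicate block. The methods' rule took *Cldn1* and *Cldn8* as higher, against 6.45% of bright genes in either direction.

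In *Pparg-cKO* ureters, *Cldn1* rose and *Cldn3* and *Cldn6* fell with purmorphamine, where 1.85% of all genes were called higher and 2.81% lower. *Cldn1* went from 8.10 to 9.27 in male and from 9.29 to 11.34 in female ureters. The female pool lay above the male one of the same treatment each time, and the log2 fold change was 1.61 (SE 0.22, 3.05-fold, adjusted p = 0.035). *Cldn3* went from 11.80 to 10.28 and from 11.73 to 9.80, a log2 fold change of -1.73 (SE 0.27, adjusted p = 0.041). Its level with purmorphamine still lay above both control pools of either treatment. *Cldn6* went from 8.28 to 6.99 and from 8.67 to 7.16, a log2 fold change of -1.41 (SE 0.18, adjusted p = 0.031). It ended below the male control pool with DMSO (7.23) but above both control pools with purmorphamine (6.77 and 6.60).

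Each of these 3 calls was lost without the female *Pparg-cKO* array, which holds the pool with the high squamous markers. The log2 fold changes were then 1.17 for *Cldn1* (adjusted p = 0.086), -1.53 for *Cldn3* (adjusted p = 0.16) and -1.30 for *Cldn6* (adjusted p = 0.13), and all 3 calls remained without any one of the other arrays. With the processed signals, none of the 3 passed, nor did any with the replicate block and its own intraspot correlation. The *Pparg-cKO* pools with DMSO enter both this comparison and the first, so that a value that is high in them counts toward a higher level in one and a decrease in the other. The same holds for the kidney markers, of which *Umod*, *Slc12a1* and *Nphs1* fell with purmorphamine (*Umod* by a log2 fold change of -2.25, adjusted p = 0.032). Their part in the decrease of *Cldn3* and *Cldn6* was not tested.

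*Cldn7* had -0.43 (adjusted p = 0.09), from -0.48 between male and -0.38 between female pools, nearly the values of control ureters, where the pairs gave -0.48 and -0.43. *Cldn8*, at 13.98 and 13.75 with DMSO and 13.81 and 13.74 with purmorphamine, had -0.09 (95% confidence interval -0.41 to 0.22, adjusted p = 0.76). *Cldn23* had 0.33 (adjusted p = 0.18), *Tjp1* 0.18 (adjusted p = 0.57), *Cldn4* 0.12 (adjusted p = 0.7), *Ocln* -0.07 (adjusted p = 0.84) and *Cldn10* -0.12 (adjusted p = 0.72). The methods' rule took *Cldn1* as higher and *Cldn3* as lower, against 8.67% of bright genes in either direction. Summed mesenchyme and smooth muscle markers were higher with purmorphamine. In control pools the sums were 146900 and 172500 with DMSO and 258400 and 235300 with purmorphamine, and in *Pparg-cKO* pools they were 168600 and 149200 and then 247000 and 283800. None of these 8 genes passed the limma threshold in either genotype. Of the superficial cell markers, 4 of 5 rose with purmorphamine in *Pparg-cKO* ureters (sums of 40480 and 38120 with DMSO and 75440 and 92730 with purmorphamine) and 0 of 5 were called in control ureters (65860 and 74560, then 115100 and 130000). Of the 4 basal markers, *Krt15* fell in both genotypes, and the basal sums went from 62600 to 40030 and from 95740 to 30260 in *Pparg-cKO* and from 70120 to 54780 and from 55250 to 43530 in control ureters. Of the 8 epithelial markers, 1 fell in both genotypes (*Epcam*), and the median log2 fold change was -0.05 in control and -0.28 in *Pparg-cKO* ureters. The epithelial sums with purmorphamine were 104400 and 100500 in control and 98920 and 93310 in *Pparg-cKO* pools. Of the 6 endothelial markers, 1 rose in control ureters (*Tek*) and 2 in *Pparg-cKO* ureters (*Tek* and *Cdh5*). The part of these shifts in the values of the 10 genes was not tested.

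**Figure D4:**
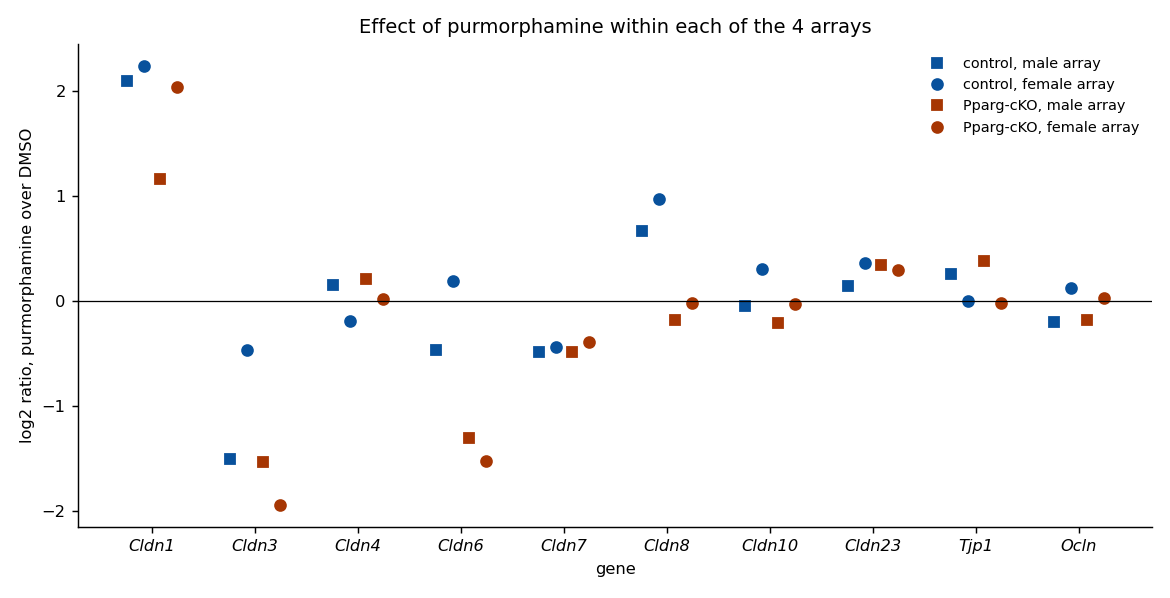
Log2 ratio of purmorphamine over DMSO within each of the 4 arrays for the 10 genes, blue for control and brown for *Pparg-cKO* arrays, squares for male and circles for female arrays. *Cldn1* lies between 1.17 and 2.24 on all 4 arrays, and *Cldn8* is at 0.67 and 0.97 on the control arrays and at -0.17 and -0.01 on the *Pparg-cKO* arrays.

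Whether purmorphamine acted differently in the genotypes was tested by the difference of its effects. None of the 10 genes passed, and 0% of all genes did by limma, while before adjustment 319 genes with a positive and 351 with a negative difference had a p under 0.05. Among the 10 genes, 2 had such an unadjusted p. For *Cldn6* the effect in *Pparg-cKO* minus that in control ureters was -1.27 on the log2 scale (SE 0.26, adjusted p = 1), from -0.84 on male and -1.71 on female arrays. For *Cldn8* it was -0.92 (SE 0.17, adjusted p = 1), from -0.85 and -0.99. For *Cldn1* it was -0.56 with a 95% confidence interval of -1.36 to 0.24, and for *Cldn3* -0.75 with an interval of -1.72 to 0.21. *Cldn6* lay near background in control pools with DMSO (7.23 and 6.40) and with purmorphamine (6.77 and 6.60). *Cldn3* did so in the female control pools (6.87 and 6.41). A fall could hardly be measured in these pools, which limits the differences of *Cldn6* and *Cldn3*.

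The other genes of the junction were read from lists of claudins, other membrane proteins, scaffold and polarity proteins, and proteases with their inhibitors that act on claudins (*St14*, *Prss8*, *Spint1* and *Spint2*). Of the 19 other claudin genes on the array, 9 passed the filter. In the comparison of the genotypes with DMSO, none of these 9 was called and their log2 fold changes ran from -0.91 for *Cldn15* to 0.68 for *Cldn5*, the claudin of endothelial cells, with a median of 0.18. *Cldn15*, a pore-forming claudin, was the only other claudin called in any comparison, with purmorphamine in *Pparg-cKO* ureters. It went from 10.41 to 9.05 in male and from 11.37 to 9.94 in female ureters, a log2 fold change of -1.40 (SE 0.15, adjusted p = 0.02). In control ureters it went from 11.78 to 11.35 and from 11.81 to 10.90, a log2 fold change of -0.67 (adjusted p = 0.11).

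Of the 13 other membrane proteins of the junction, only *Epcam* was called, and of the 23 scaffold and polarity proteins only *Amot*. *Epcam*, which is also among the epithelial markers, binds claudins such as claudin 7 and stabilizes them. It fell with purmorphamine in both genotypes. It read 13.82 and 13.53 with DMSO and 12.74 and 12.68 with purmorphamine in control, and 14.25 and 14.31 and then 13.54 and 13.40 in *Pparg-cKO* pools. The log2 fold changes were -0.96 (adjusted p = 0.047) and -0.81 (adjusted p = 0.039). Between the genotypes it was higher in *Pparg-cKO* ureters with purmorphamine by 0.76 (adjusted p = 0.032) and had 0.61 with DMSO (adjusted p = 0.052). *Amot*, which encodes angiomotin, a partner of the polarity complexes, was higher in *Pparg-cKO* ureters with DMSO by 0.58 (adjusted p = 0.039). *Marveld2*, the neighbor of *Ocln*, had 0.23 (adjusted p = 0.54). None of the 4 proteases and inhibitors was called in any of the comparisons, with log2 fold changes of -0.47 to 0.38.

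The medians over these 49 other genes were 0.12 and 0.08 between the genotypes with DMSO and with purmorphamine, and 0.05 and -0.01 for purmorphamine in control and *Pparg-cKO* ureters. With DMSO the median of the 10 genes, 0.58, lay above that of the other junction genes and of all genes. The lists hold genes picked in different ways, and nothing particular to the 10 follows from this.

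**Figure D5:**
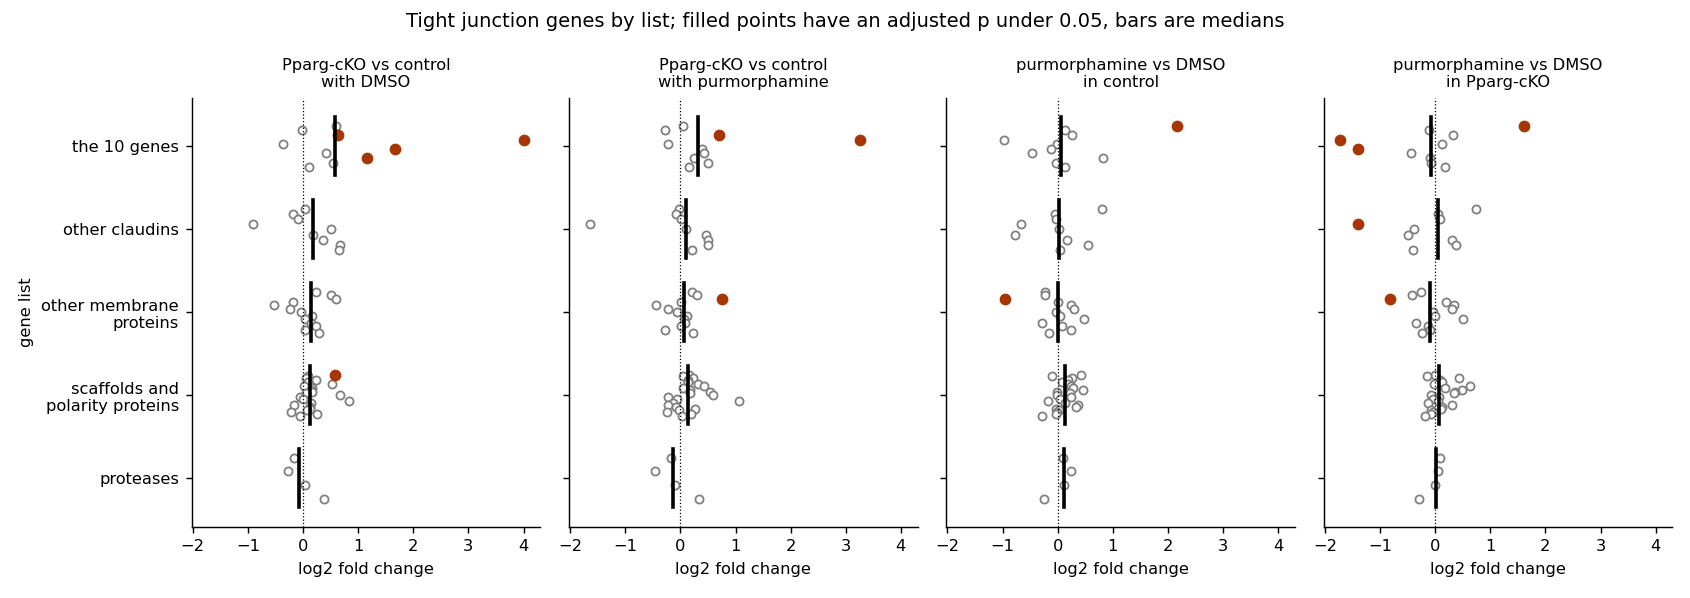
Log2 fold change of each tested gene of the tight junction (points, filled where the adjusted p is under 0.05) by list in the 4 comparisons, with a bar at the median of the list. Outside the 10 genes, the filled points are *Amot*, *Epcam* (in 3 panels) and *Cldn15*.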

How the data were processed

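RNA of 8 pools was measured on 4 two-color arrays (157716 spots that were not controls, 4 per probe). Per the file headers, Agilent Feature Extraction 12.2.0.7 gave the mean and background intensity per spot in either dye, and the processed intensity was background-subtracted and dye-normalized by it. The deposited log10 ratio, red over green, served to check dye direction. The score in the deposited series table is the fold change of purmorphamine against DMSO, negative where lower. Its normalization is not stated, with a median of 0 on all arrays after log2. It was used as an alternative.

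Spots marked as outliers were left out. With limma 3.58.1 in R 4.3.3, mean intensities were corrected by normexp (offset 50, local background), normalized by loess within arrays, and averaged over the spots of a probe. Genotypes, which never shared an array, were set against each other in a fit of separate channels that followed Aquantile normalization (intraspot correlation 0.0535, from 4000 probes, held in all fits but one), and purmorphamine with DMSO by the log ratio within arrays. All arrays shared an estimate of the spread, without a replicate block. Probes well above background on at least 3 of 4 spots in both pools of a group were tested (27064 probes, 20229 genes), with Benjamini-Hochberg adjustment over all of them and 0.05 as the threshold. Each gene was represented by its brightest probe in these fits. For the methods' rule, processed intensities were averaged geometrically, scaled per channel to a 75th percentile of 1500 and floored at 15, and any probe of a gene could pass. Folds of dim genes are bounds against the lowest level well above background. Precision is limited by the number of arrays, with 66.3% to 70.5% of spots per channel well above background and 0 saturated. P-values measure the spread between pools, of which nothing states separate cultures. The scripts were tested on simulated data.

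Named are the 10 genes and, of the other junction genes, those past the threshold with the same direction in both replicates, with neighbors by position and, to give the ends of a range, single genes chosen after their values were seen. Genes and lists were chosen with earlier results of these data known. Replicate numbers stand for sex and do not pair animals. The alternatives were other background corrections, scalings, filters, probe summaries, adjustments, a replicate block, a dye term and leaving out each array.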

Additional observations from a re-analysis of the deposited data

Results flagged for a closer look

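*Cldn8* stood out because its log2 ratio of purmorphamine over DMSO was positive on both control arrays and slightly negative on both *Pparg-cKO* arrays. The log2 ratios were 0.67 and 0.97 against -0.17 and -0.01, and the difference of the effects was -0.917 (adjusted p = 1 by limma), which did not pass after adjustment over all probes. The effect in *Pparg-cKO* ureters alone was -0.09 with a 95% confidence interval that spans 0.

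*Ocln* stood out because its log2 ratio was negative on both male arrays (-0.19 in control and -0.18 in *Pparg-cKO*) and positive on both female ones (0.13 and 0.04). The mean of the female minus that of the male arrays was 0.267. This difference was not tested, and sex, dye order and replicate number cannot be told apart in it. No group had enough pools to look for a single pool far from the others.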

How the results depend on the processing

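The calls rest on 2 pools per group. Over all genes, fewer were called whenever the array left out was one of those compared, so a call lost in this way is not particular to the 10 genes. Of the 10 genes, 4 were called between the genotypes with DMSO, 2 with purmorphamine, and 1 in control and 3 in *Pparg-cKO* ureters for purmorphamine. With the processed signals these counts were 0, 0, 0 and 0, with no filter on dim probes 2, 1, 0 and 0, and for the treatment with the deposited series values 0 and 0. A dye term left 1 and 0 calls between the genotypes. No normalization between arrays left 1 call with purmorphamine, moved the median of all genes to -0.148 with DMSO and -0.151 with purmorphamine, and split all calls into 334 higher and 683 lower and 182 and 717, against 378 and 365 and 232 and 369. With each array left out, the counts were 0 to 2, 0 to 1, 0 to 1 and 0 to 3. The methods' rule at a fold of 2 took 1, 1, 1 and 2 genes, and with purmorphamine between the genotypes it took 3 to 4 with a replicate left out. The treatment calls over all genes went to 0 with the processed signals and with the deposited series values in both genotypes. Without the filter they went to 0 in control ureters and to 123 higher and 166 lower in *Pparg-cKO* ureters. Between the genotypes, all genes gave 243 higher and 188 lower with DMSO and 103 and 110 with purmorphamine by the processed signals. These counts were 337 and 285 and 187 and 271 without the filter, and 301 and 275 and 157 and 228 with the dye term. The causes were not tested.

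Replicate numbers stand for sex and dye order only. The deviations of same-numbered pools correlated at -0.17 with DMSO and 0.482 with purmorphamine between the genotypes. With a replicate block, 3, 1, 0 and 1 genes were called, and over all genes 367 higher and 343 lower, 208 and 279, 98 and 169, and 502 and 588. These fits used the intraspot correlation estimated without the block, 0.0535. Estimated with the block it was -0.696, and the block fit with it, chosen after seeing the data, called 0 of the 10 genes in every comparison and, over all genes, 173 higher and 126 lower and 66 and 54 between the genotypes, and 0 and 1 and 0 and 0 for the treatment. The crossed pairing with DMSO, also chosen after seeing the data, called 4 of the 10 genes and, over all genes, 326 higher and 284 lower.

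Of the values per gene and setting, 563 kept direction and side of the threshold, 70 no longer passed, 1 newly passed and 26 changed sign. Without normalization between arrays, *Cldn1* was at -0.05 between the genotypes with purmorphamine and *Tjp1* at -0.11 with DMSO and -0.06 with purmorphamine. *Cldn10* was at 0.05 with DMSO by processed signals, and *Ocln* at 0 for purmorphamine in control ureters by the deposited series values. The other changes of sign came with an array left out, all in log2 differences that had passed no test. Between the genotypes with purmorphamine they ran from -0.99 to 1.07 for *Cldn1* and -0.04 to 0.53 for *Cldn8*. Between the genotypes with DMSO they ran from -0.32 to 0.28 for *Cldn10* and -0.03 to 0.23 for *Tjp1*. For purmorphamine in control ureters they ran from -0.04 to 0.31 for *Cldn10*, -0.19 to 0.15 for *Cldn4*, -0.46 to 0.2 for *Cldn6* and -0.19 to 0.13 for *Ocln*. For the difference of the treatment effects they ran from -0.04 to 0.18 for *Cldn23*, -0.04 to 0.3 for *Cldn4*, -0.03 to 0.07 for *Cldn7*, -0.2 to 0.12 for *Ocln* and -0.15 to 0.25 for *Tjp1*. For purmorphamine in *Pparg-cKO* ureters they ran from -0.18 to 0.04 for *Ocln* and -0.02 to 0.38 for *Tjp1*.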
